A study of Homo sapiens with 4 samples.

Results

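The genes described here encode the proteasome, its regulators and the factors that assemble it, in U87 cells, an established human glioblastoma line, given 5 µM of the compound YZ129 (2 libraries) or the vehicle DMSO (2 libraries) for 24 h before poly(A) RNA sequencing. The series title places YZ129 in a search for inhibitors of the HSP90, calcineurin and NFAT pathway. Members were all symbols of the deposited table that begin with PSMA, PSMB, PSMC, PSMD, PSME, PSMF or PSMG and a digit, with antisense RNAs and pseudogenes left out. That gave 48 of 19749 genes, of which 47 had an adjusted p-value. PSMA8, a testis form of a core subunit, was not analysed here, and PSMC3IP fits the naming rule but encodes a meiotic recombination factor, so it was counted as a member and kept out of the classes.

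The proteasome degrades proteins tagged with ubiquitin. Its hollow core is built from rings of alpha subunits (PSMA genes), which gate the channel, and rings of beta subunits (PSMB genes), which hold the protease sites; a cap at either end recognises the tagged protein, removes the tag and unfolds it with a ring of ATPases (PSMC genes) beside non-ATPase subunits (PSMD genes). Dedicated chaperones put the rings together and leave the finished particle. When proteasome activity is short, cells are known to raise the subunit genes together through the transcription factor NRF1 (gene NFE2L1), and interferon is known to induce a separate set of protease subunits, those of the immunoproteasome.

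The file holds no values per library, only the authors' fold change for each gene. All changes below are the authors' log2 fold changes ± their standard errors, read as YZ129 over DMSO. The header does not name the numerator, and the comparison is titled with DMSO in first place, which by common usage would make DMSO the numerator. The reading rests on targets of the heat shock factor HSF1, which is known to be released when HSP90 is inhibited: HSPA6 (2.64 ± 0.23), BAG3 (0.99 ± 0.14) and HSPH1 (0.88 ± 0.14) were positive in the authors' deposited table. If the ratio ran the other way, every sign given here would be turned round. A gene was called where the authors' adjusted p, Benjamini-Hochberg over all genes they tested, was under 0.05. No label states that both libraries of a condition were grown separately, so these p-values measure only the spread between libraries, which may be technical. Bulk RNA scaled to library size cannot tell fewer cells with a transcript from less of it per cell.

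Proteasome transcripts stayed close to their control level, and the small differences pointed almost all one way. Of the 47 tested members 5 (10.6%) fell with YZ129 and 0 rose in the authors' deposited table, against a background of 7.64% of all 14812 tested genes called lower and 5.24% called higher. The mean level of 44 of the 47 reached 1000 normalized reads, and among the tested genes that did so, called abundant below, 10.1% fell and 3.82% rose, so the members' share of calls was near the background at this threshold. At an adjusted p under 0.1 there were 9 members lower (19.1%), against 10.2% of all tested genes and 13.6% of the abundant ones. With changes centred on the median of all tested genes, 2 of the 5 calls were left, PSMA6 and PSMD11 (4.26%, against 5.97% of all tested genes and 7.85% of the abundant ones). The median change of the members was -0.22, or -14.2% on the linear scale. The median was -0.05 over all tested genes and -0.11 over the abundant ones. A negative value was found for 41 of the 47 members (87.2%), against 56.0% of all tested genes and 67.0% of the abundant ones. Of the members, 37 lay below the -0.11 of the abundant genes. At an unadjusted p under 0.05, by the Wald test of the authors' table with DESeq2 columns, 11 members were lower (23.4%, against 14.5% of all tested genes and 19.2% of the abundant ones) and 0 were higher (against 10.5% and 7.08%).

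The members were also alike among themselves. Their quartiles were -0.29 and -0.14, against -0.25 and 0.21 for all tested genes and -0.27 and 0.06 for abundant ones. The SD between members, 0.17, was about the size of the error on a single member, whose median was 0.15, with a range of 0.13 to 0.22. The 95% interval of each of the 47, taken as the change ± the normal quantile times its standard error, stayed within 2-fold in either direction; the lowest bound was -0.88 and the highest 0.50. A rise of 1.5-fold, which is 0.58 on the log2 scale, therefore lay outside the interval of every tested member, on the authors' moderated scale. Such an interval held for 93.7% of the abundant genes within 2-fold.

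**Figure D1:**
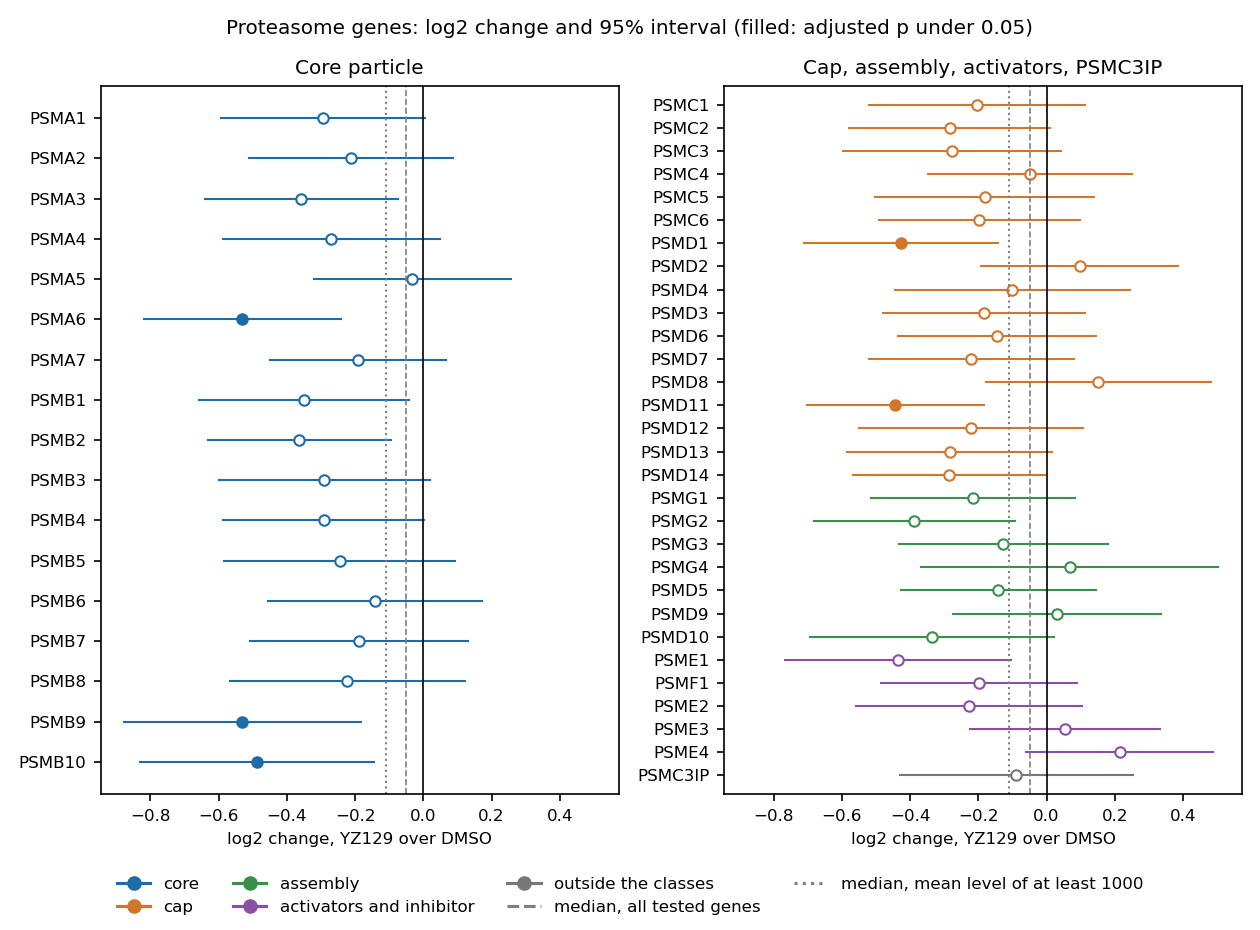
Log2 change of each tested proteasome gene, YZ129 over DMSO, with its 95% interval; filled points passed an adjusted p of 0.05, the dashed and dotted lines are the medians of all tested genes (-0.05) and of abundant genes, from a mean level of 1000 (-0.11). All 17 core members lie left of 0, and the 5 filled points are PSMA6, PSMB9, PSMB10, PSMD1 and PSMD11.

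Core particle genes had the lowest median of the main classes, at -0.29 over 17 tested members, all of them negative. Among them 3 fell (17.6%) and 0 rose in the authors' deposited table, against 7.64% and 5.24% of all tested genes. Of the abundant genes 10.1% fell. At an unadjusted p under 0.05, 6 core members were lower (35.3%, against 14.5% of all tested genes and 19.2% of the abundant ones). The same share was 17.6% in the cap, 14.3% in assembly and 20.0% among activators and the inhibitor. The cap followed with a median of -0.20 over 17 members, of which 2 fell (11.8%) and 15 were negative (88.2%). The 7 assembly factors had a median of -0.14, with 0 calls and 5 negative values. The 5 genes of activators and the inhibitor had a median of -0.20, with 0 calls and 3 negative values. The widest gap between these medians, that of core and assembly, was about as large as the SD between the members of a class, which was 0.13 in the core, 0.16 in the cap, 0.17 in assembly and 0.25 among activators. Values were negative for 56.0% of all tested genes and 67.0% of the abundant ones. The differences between classes were not tested.

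In the alpha ring PSMA6 was the member that passed. It was 1.44-fold lower with YZ129 in the authors' deposited table (-0.53 ± 0.15, adjusted p = 0.00500). PSMA3 had the next lowest value in the authors' deposited table and missed the threshold (-0.36 ± 0.14, adjusted p = 0.0837). At the other end PSMA5 stood at -0.03 ± 0.15 in the authors' deposited table, so the 7 alpha genes, all negative, ran from -0.53 to -0.03. PSMA6 has 4 named pseudogenes in GENCODE release 29, so reads may be shared with those copies. In that release 24 of the 48 members share exon bases with another gene on the same or the opposite strand. PSMA6, PSMB9, PSMB10, PSMD1 and PSMD11 are among them, so reads of each may be mixed with those of a neighbour. For PSMD1 that neighbour is HTR2B, whose mean level was 9.50 against 13067 for PSMD1 in the authors' deposited table. Whether such mixing moved a call was not tested.

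The constitutive beta genes, PSMB1 to PSMB7, gave no call, and all 7 were negative. PSMB2 was lowest in the authors' deposited table (-0.36 ± 0.14, adjusted p = 0.0571). PSMB6, which carries the caspase-like site, was highest in the authors' deposited table (-0.14 ± 0.16). The other catalytic subunits lay between them: PSMB5, the chymotrypsin-like site and the target of the clinical proteasome inhibitors, had -0.25 ± 0.17, and PSMB7, the trypsin-like site, -0.19 ± 0.16 in the authors' deposited table.

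The immunoproteasome subunits replace those same 3 sites in newly built particles. PSMB9, which takes the place of PSMB6, was 1.44-fold lower with YZ129 in the authors' deposited table (-0.53 ± 0.18, adjusted p = 0.0265). PSMB10, which takes the place of PSMB7, was 1.40-fold lower in the authors' deposited table (-0.49 ± 0.17, adjusted p = 0.0429). Neither call held with changes centred on the median of all tested genes, where the adjusted p was 0.0522 for PSMB9 (0.0232 to 0.0522 over the alternatives) and 0.0801 for PSMB10 (0.0379 to 0.0801), and PSMB10 was also lost with no filter on low levels (adjusted p = 0.0565). PSMB8, the counterpart of PSMB5, missed the threshold in the authors' deposited table (-0.22 ± 0.18, adjusted p = 0.461). Set against the constitutive partner, the differences were -0.39 ± 0.24 for PSMB9 minus PSMB6, -0.30 ± 0.24 for PSMB10 minus PSMB7 and 0.02 ± 0.25 for PSMB8 minus PSMB5, with both errors taken as independent. Their 95% intervals ran over -0.86 to 0.08, -0.77 to 0.17 and -0.46 to 0.50, and each interval includes 0. PSMB11, the thymic form, had a mean level of 0.370 in the authors' deposited table and no adjusted p.

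Other genes of antigen processing gave no call. Of 7 genes reported that make or control the peptide-loading machinery, 0 rose and 0 fell in the authors' table with DESeq2 columns. At an unadjusted p under 0.05, 2 were lower (28.6%) and 0 higher, against 14.5% and 10.5% of all tested genes. All 7 were abundant, and of the abundant genes 19.2% were lower and 7.08% higher. The median of the 7 was -0.14. The peptide-trimming enzyme ERAP1 had the lowest value of these in the authors' deposited table (-0.37 ± 0.15, adjusted p = 0.0804). TAP1, a subunit of the peptide transporter, had the highest, at 0.12 ± 0.15 in the authors' deposited table. Its 95% interval ran from -0.18 to 0.41. TAP1 and PSMB9 start 488 bases apart on opposite strands in the RefSeq annotation of GRCh38.p14 and are transcribed away from each other. The change of PSMB9 minus that of TAP1 was -0.65 ± 0.23, with a 95% interval of -1.10 to -0.19. PSMB9 had the lowest value of the 47 tested members and TAP1 the highest of the 7 antigen processing genes. This pair was set side by side after its values were seen, so its interval is a description of extremes and no test. PSMB9 shares exon bases in GENCODE with PSMB8 and PSMB8-AS1, and whether reads were counted by strand is not stated in any source at hand, so reads of the 3 genes may be mixed.

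The part next to PSMB9 of the 488 bases between the starts of TAP1 and PSMB9 is printed. It was chosen because these neighbours had values of opposite sign, though the interval of TAP1 includes 0. The printed part covers the 250 bases before the start of PSMB9, chr6:32853942-32854191 on the plus strand of GRCh38.p14, from RefSeq. Capitals mark matches to the antioxidant response core TGACNNNGC, which NRF1 and NRF2 are known to bind, and to CCAAT, on either strand.

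PSMB9: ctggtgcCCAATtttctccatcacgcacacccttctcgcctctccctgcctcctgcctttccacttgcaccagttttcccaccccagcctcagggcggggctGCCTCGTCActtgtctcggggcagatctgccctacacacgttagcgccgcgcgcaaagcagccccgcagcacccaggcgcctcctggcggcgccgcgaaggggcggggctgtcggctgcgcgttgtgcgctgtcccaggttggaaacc

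The ATPase ring of the cap gave no call. PSMC1 to PSMC6 gave 0 calls, also at an unadjusted p under 0.05, in the authors' table with DESeq2 columns. At that p, by the authors' Wald test, 14.5% of all tested genes were lower and 10.5% higher. Of the abundant genes 19.2% were lower and 7.08% higher. All 6 ATPase values were negative. The ATPase values ran in the authors' deposited table from PSMC2 (-0.28 ± 0.15) up to PSMC4 (-0.05 ± 0.15), with a median of -0.20.

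Of the non-ATPase subunits of the base, PSMD1 passed. This scaffold of the base was 1.34-fold lower with YZ129 in the authors' deposited table (-0.43 ± 0.15, adjusted p = 0.0312). The call was lost with changes centred on the median of all tested genes (adjusted p = 0.0682, and 0.0273 to 0.0682 over the alternatives). PSMD2, the scaffold that docks ubiquitin shuttles and enzymes, stood at 0.10 ± 0.15 in the authors' deposited table. The ubiquitin receptor PSMD4 had -0.10 ± 0.18 in the authors' deposited table.

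In the lid, PSMD11 passed. It clamps the lid to the core, and it was 1.36-fold lower with YZ129 in the authors' deposited table (-0.44 ± 0.13, adjusted p = 0.0107). PSMD14, the enzyme that cuts the ubiquitin chain off the substrate, had -0.29 ± 0.14 in the authors' deposited table (adjusted p = 0.192). PSMD8 was the highest of the 8 lid genes, at 0.15 ± 0.17 in the authors' deposited table. It was also the second highest of all tested members.

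Assembly factors gave no call. The chaperones of the alpha ring are PSMG1 to PSMG4, and among them PSMG2 had the lowest value (-0.39 ± 0.15, adjusted p = 0.0674) in the authors' deposited table. Its partner PSMG1 had -0.22 ± 0.15, while PSMG3 had -0.13 ± 0.16 and its partner PSMG4 0.07 ± 0.22 in the authors' deposited table. The chaperones of the cap base went from PSMD10, also known as the oncoprotein gankyrin (-0.34 ± 0.18), over PSMD5 (-0.14 ± 0.15) to PSMD9 (0.03 ± 0.16) in the authors' deposited table. By the authors' table with DESeq2 columns 1 of the 7, PSMG2, was lower at an unadjusted p under 0.05 and 0 were higher. The share lower was 14.3%, against 14.5% of all tested genes and 19.2% of the abundant ones.

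Neither the activators nor the inhibitor gave a call. PSME1 and PSME2 form the interferon-inducible cap that opens the core without ATP, and they had -0.43 ± 0.17 (adjusted p = 0.0682) and -0.23 ± 0.17 (adjusted p = 0.433) in the authors' deposited table. PSME3, the nuclear relative, had 0.05 ± 0.14 and PSME4, the large nuclear activator, 0.21 ± 0.14 in the authors' deposited table. The value of PSME4 was the highest of any tested member in the authors' deposited table (adjusted p = 0.348). The inhibitor PSMF1 had -0.20 ± 0.15 in the authors' deposited table. PSMC3IP, outside the proteasome, had -0.09 ± 0.17 in the authors' deposited table.

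**Figure D2:**
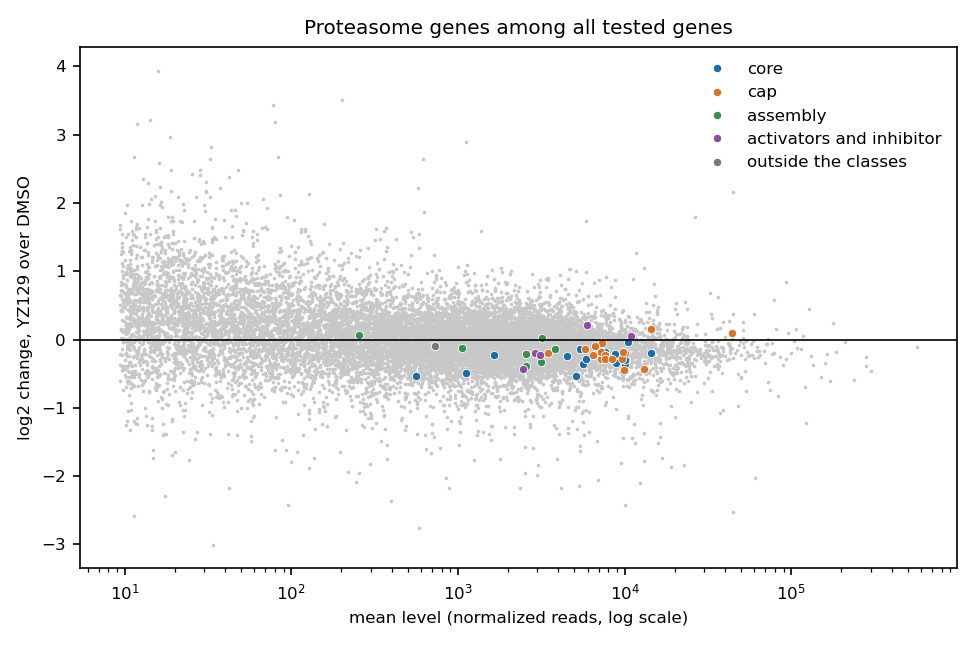
Log2 change, YZ129 over DMSO, against the authors' mean level on a log scale; grey points are all 14812 tested genes and coloured points the 47 tested proteasome genes by class. The members sit in the dense band just under 0, between -0.53 and 0.21, at mean levels from 256 to 44228.

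Levels differed widely between the members. The authors' mean level counts reads and grows with transcript length. It was therefore divided here by the length of each gene's longest principal transcript in GENCODE release 29. The authors' own annotation is not stated in any source at hand, and the mean covers 8 libraries, 4 more than those described. Per kb, the 7 constitutive beta genes had a median level of 7585 and the 7 alpha genes one of 5794. The cap classes, with PSMD2 at 12823 per kb as their highest gene, had medians per kb of 3450 for the ATPases, 4890 for the base and 3943 for the lid. Assembly factors had a median level of 1146 per kb. Each immunoproteasome gene was below its constitutive partner on this scale, PSMB8 2.38-fold below PSMB5, PSMB9 8.82-fold below PSMB6 and PSMB10 8.45-fold below PSMB7. Within the alpha ring, whose subunits are present in equal numbers in the particle, the level per kb of PSMA7 was 7.83-fold that of PSMA4. The mean levels were 14304 and 8086 and the lengths used 996 and 4411 bases, so much of that ratio rests on the lengths. For both genes the longest coding transcript has the same length, so that choice leaves the ratio as it is. These values depend on the transcript chosen: with the longest coding transcript in place of the principal one, the level of PSMG4 was 55.5 per kb in place of 305 and that of PSME3 3230 per kb in place of 10895.

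**Figure D3:**
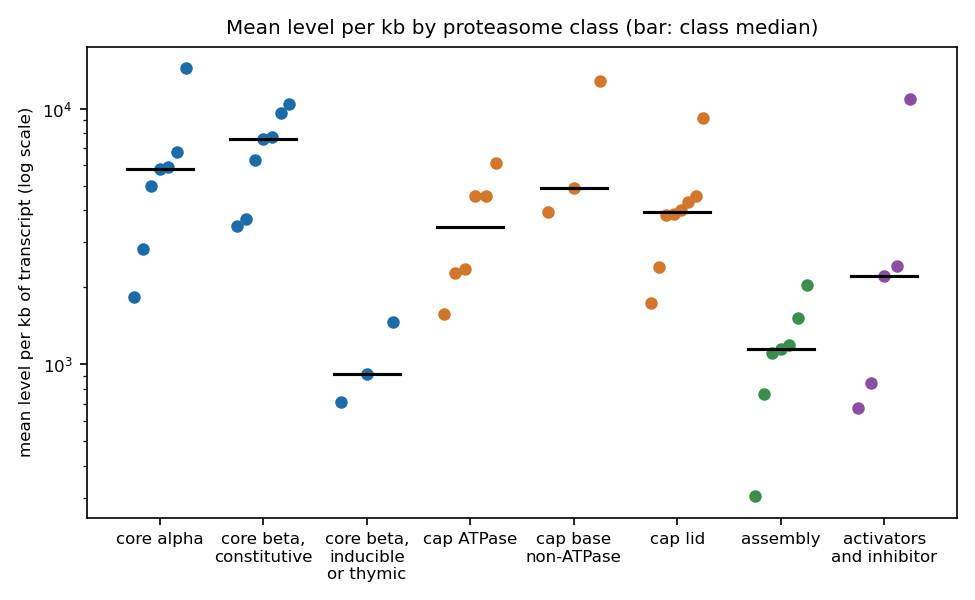
Authors' mean level divided by transcript length, on a log scale, for the tested proteasome genes by class; each point is a gene and each bar the class median. Constitutive core genes have medians per kb of 5794 and 7585, assembly factors 1146 and the inducible beta genes 917.

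Promoters of some members match the core of the response element by which NRF1 is known to act. Of the 48 members, 42 matched RefSeq promoters of GRCh38.p14 (250 bases before to 50 after the start). The core TGACNNNGC, or its reverse complement GCNNNGTCA, was found in 15 of the 42 (35.7%), against 16.1% of 27305 genes with such a promoter. CCAAT or ATTGG was found in 21 of the 42, against 39.7% of genes, and the heat shock element core GAANNTTC, which reads the same on both strands, in 1, PSMC3IP (2.38%, against 8.21%). Of the 17 matches to the response core, 14 lay before the start and 3, among them that of PSMD1, in the transcribed 50 bases. These windows show it in the 2 members that fell and hold it, PSMB9 and PSMD1, and in 6 others from several classes. Capitals mark the match, with 10 bases on either side where the promoter reaches that far, on the strand of the gene. All printed members had negative changes. Of the members with a match that are not printed, PSME4 (0.21 ± 0.14) and PSMD9 (0.03 ± 0.16) had positive changes and the rest negative ones, with PSMC4 at -0.05 ± 0.15.

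PSMB9, chr6:32854034-32854062, plus strand: gggcggggctGCCTCGTCActtgtctcgg
PSMD1, chr2:231056896-231056916, plus strand: aggaggcgacTGACTGAGCag
PSMA4, chr15:78540650-78540678, plus strand: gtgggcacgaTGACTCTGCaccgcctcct
PSMB3, chr17:38752627-38752655, plus strand: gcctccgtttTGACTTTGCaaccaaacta
PSMD3, chr17:39980760-39980788, plus strand: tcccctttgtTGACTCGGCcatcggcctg
PSMD12, chr17:67366724-67366752, minus strand: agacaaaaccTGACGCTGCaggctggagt
PSME1, chr14:24136098-24136126, plus strand: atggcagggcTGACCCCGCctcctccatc
PSMG2, chr18:12658689-12658717, plus strand: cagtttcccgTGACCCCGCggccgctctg

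The medians of members with and without a match to the core were nearly equal. The 15 with it had a median of -0.22 and 2 falls, and the 26 tested members without it had a median of -0.23 and 3 falls; this comparison was not tested. A match is a run of letters and does not show that a factor binds there.

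Genes that feed and serve the proteasome gave 1 call. Of 27 companions reported, 1 rose and 0 fell in the authors' table with DESeq2 columns, against the background of 5.24% higher and 7.64% lower; their median was -0.16. At an unadjusted p under 0.05, 2 were higher and 2 lower (7.41% each), against 10.5% and 14.5% of all tested genes. Most companions were abundant, and of the abundant genes 7.08% were higher and 19.2% lower at that p. Of the abundant genes 3.82% were called higher and 10.1% lower.

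Of the factor that switches on the subunit genes and its processing enzymes, 1 enzyme passed. NFE2L1, the gene of NRF1, had -0.31 ± 0.14 in the authors' deposited table (adjusted p = 0.141). DDI2, the protease that cuts NRF1 into its active form, rose 1.80-fold with YZ129 in the authors' deposited table (0.85 ± 0.25, adjusted p = 0.00976). NGLY1, which strips the sugars from NRF1, had 0.08 ± 0.15 in the authors' deposited table. RSC1A1 lies within an exon of DDI2 on the same strand and also rose in the authors' deposited table (0.67 ± 0.20, adjusted p = 0.0121), so reads of the pair may be mixed.

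The polyubiquitin gene UBB (-0.09 ± 0.14) and the ribosomal fusion gene RPS27A (-0.07 ± 0.16) stood near the median of abundant genes in the authors' deposited table.

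Subunits and assembly factors with other names gave no call. The ubiquitin receptor ADRM1 had -0.24 ± 0.15, the small lid subunit SHFM1 (now SEM1) -0.14 ± 0.17 and the core maturation factor POMP -0.27 ± 0.17 in the authors' deposited table. The deubiquitinases that sit on the cap, USP14 (-0.23 ± 0.15) and UCHL5 (-0.27 ± 0.20), missed the threshold in the authors' deposited table. VCP, the p97 ATPase that pulls tagged proteins out of complexes, had -0.25 ± 0.14, and its cofactor NSFL1C -0.42 ± 0.16 (adjusted p = 0.0550) in the authors' deposited table. The stress-induced cofactors ZFAND2A (0.35 ± 0.17, adjusted p = 0.158) and ZFAND5 (0.25 ± 0.17, adjusted p = 0.375) were the highest after DDI2 in the authors' deposited table, short of the threshold.

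**Figure D4:**
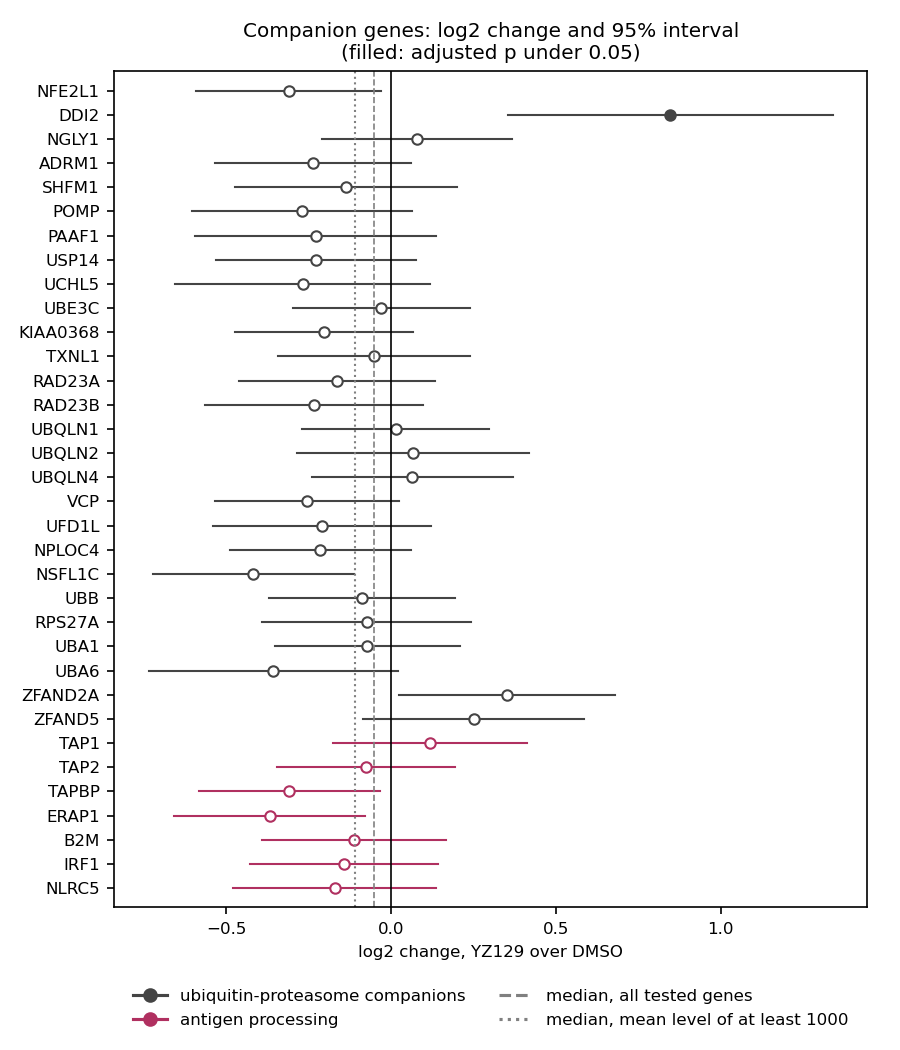
Log2 change, YZ129 over DMSO, with 95% intervals for 27 companion genes of the ubiquitin-proteasome system and 7 antigen processing genes; filled points passed an adjusted p of 0.05. DDI2 (0.85) is the 1 filled point.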

How the data were processed

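The deposited file holds a single comparison made by the authors; values per library were not analysed here. The submitters' processing notes list hg19, Cuffdiff, Cufflinks 2.2.1 and TopHat2 2.0.12 without a role for each, and per the file headers the columns are those of a DESeq2 result. The authors' mean level is a signal, namely counts scaled by size factors. Per the file headers the remaining columns give the log2 fold change, its error, a Wald score (equal to the quotient of those 2), the p-value and its adjusted form, missing for 4937 genes, none above a mean level of 9.43. The deposited log2 fold changes had been moderated towards 0: genes with 2 reads in 1 library had a median change of at most 0.55 in size. The lowest 1372 levels were sums of steps of 8 libraries (tolerance 1e-07), with size factors of 0.852 to 1.17; no source at hand says whether all 8 entered the error. Depth in reads per library was not analysed here.

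Computed here (Python 3.11.15, pandas 2.3.3, SciPy 1.17.1) were counts, medians, intervals, levels per kb and motif matches, and calls recomputed under 6 other settings; the calling code was tested on simulated data. Named were all called members, the highest and lowest of each class, all inducible, activating and assembly genes, and fixed companions; ERAP1, TAP1, PSMA3, PSMB5, PSMB7, PSMD14, NGLY1, NSFL1C and some companions were added after their values were seen. Some listed companion and antigen processing genes are not reported here and are left out of those lists' counts. Members and lists were chosen with earlier results of these data known.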

Additional observations from a re-analysis of the deposited data

How the results depend on the processing

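No paired analysis was possible because the table has no values per library, and for the same reason no replicate could be left out. No member was called higher under any of the 7 alternatives run. The 5 members called lower became 1 (PSMA6, core) at an adjusted p under 0.01, with 0 left in the cap (2.13% of members, against 4.71% of all tested genes), and 9 at an adjusted p under 0.1, with 5 in the core and 1 assembly factor (19.1%, against 10.2%). A log2 change of at least 0.5 in size left 2 (PSMA6 and PSMB9), with 0 in the cap (4.26%, against 5.84%). With changes centred on the median of all tested genes 2 were lower (PSMA6 and PSMD11), 1 each in core and cap (4.26%, against 5.97%); this setting turned the split over all genes from 776 higher and 1132 lower into 954 higher and 884 lower. PSMB10 was also lost with no filter on low levels. DDI2 passed in all 6 settings tried for it; the 1 companion called became 2, with NSFL1C, at an adjusted p under 0.1 and when only mean levels of at least 100 were tested. The medians kept their sign throughout: that of the members was -0.11 when centred on abundant genes, a setting chosen after seeing the data, and that of assembly factors then -0.03. Folds of genes with few reads are understated by the moderation.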
